A study of Rattus norvegicus with 59 samples.

Results

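Peptide hormones other than insulin were followed in INS-1E cells, a rat insulinoma line used as a β-cell model, through the mRNA of 7 genes: Npy, Ucn3, Prok2, Ghrl, Sst, Ppy and Pyy. They were found by symbol among the 17029 gene symbols (18331 transcript entries) of the deposited expression table, where the 7 genes had 9 entries. In the NG group (normal glucose, n = 20 libraries) the medium held glucose at 11.1 mM over the 72 h of culture, and in the HG group (high glucose, n = 20) at 20 mM. In HG + drugs (n = 19) the cells had 24 h at 20 mM, after which 3 agents were added to that medium over 48 h, namely 250 μM sodium salicylate, 250 μM metformin and exendin-4 at 50 nM. All groups came from a single tumour-derived cell line with no genetic change between groups, so no islet, no second cell type and no animal entered the comparison. Exendin-4 is an agonist of the GLP-1 receptor, metformin a glucose-lowering drug and salicylate an anti-inflammatory agent, and they were given together, so that their effects cannot be told apart. Expression was measured as FPKM, fragments per length of transcript and scaled to the depth of the library, and the libraries held an estimated 6950000 to 10300000 reads (median 8620000).

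Endocrine cells make peptide hormones as precursors, which are cut by prohormone convertases, trimmed and often amidated, and stored in granules until a stimulus releases them. In pancreatic islets insulin comes from β-cells, somatostatin (Sst) from δ-cells, pancreatic polypeptide (Ppy) from PP cells and ghrelin (Ghrl) from ε-cells, while NPY, PYY and PPY are related peptides that act on Y receptors. Urocortin 3 (Ucn3) is a peptide of the corticotropin-releasing factor family that marks mature β-cells in mice, and in mouse islets it drives somatostatin release through CRHR2. Prokineticin 2 (Prok2) is a small secreted protein, known in mice as an output signal of the brain clock, with the receptors PROKR1 and PROKR2.

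The 7 genes were chosen with their measured differences between these groups in view, so those differences are given as a description, without a test. In NG the order of the mean levels was Npy, Prok2, Ucn3, Ghrl and then Pyy, Ppy and Sst, which were near 0. Npy was lower in HG than in NG and between the 2 in HG + drugs. Ucn3 was lower in HG than in NG by a larger ratio, and also lay between them in HG + drugs. Prok2 went the opposite way, being higher in HG than in NG, with HG + drugs between the 2. Ghrl was low with similar levels in the 3 groups.

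Before these values are given, 1 pair of libraries has to be set apart. Of the 923 transcripts that differed between HG + drugs and HG, the HG + drugs and HG libraries numbered replicate 13 differed in the group direction in 18.1%, whereas the libraries of the 18 other shared numbers did so in 82.7% to 95.7% (median 90.2%). The library labelled HG replicate 13 had the lowest summed Prok2 of its group (60.2 FPKM) and the second highest Npy (213 FPKM). The library labelled HG + drugs replicate 13 had the highest summed Prok2 of its group (132 FPKM) and the lowest Npy (177 FPKM). Whether the labels of these 2 libraries were exchanged was not tested, and what their extreme values say of either group depends on it. The labels were kept as given. For Npy, summed Prok2 and Ucn3, the HG and HG + drugs means are also given without replicate 13. The same is done for the receptor and other hormone calls that moved without it. Other values include it.

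Npy, an appetite-stimulating neuropeptide that inhibits insulin secretion in rodent islets, was the highest of the 7 in every library. Its 2 entries, of 565 bases each, held identical values in all 59 libraries and were counted once. If reads were divided between 2 placements, the level would be their sum. The ratios of Npy between groups would be unchanged, but not its ratios to other genes. The NG libraries ranged from 277 to 421 FPKM (median 352, mean 346 ± 45.6, SD, n = 20). The HG libraries ranged from 153 to 216 FPKM (median 176, mean 182 ± 19.1, SD, n = 20). The highest HG library was therefore below the lowest NG library. The HG + drugs libraries ranged from 177 to 325 FPKM (median 235, mean 239 ± 36.2, SD, n = 19), and 13 of 19 were above the highest HG library, while 16 of 19 were below the lowest NG library. On the scale of log2(FPKM + 1), the difference was -0.92 (SE 0.06) for HG compared to NG, 0.38 (SE 0.06) for HG + drugs compared to HG and -0.54 (SE 0.06) for HG + drugs compared to NG. In mean FPKM, NG was 1.90-fold higher than HG, and HG + drugs was 1.31 times HG. The median library held an estimated 1055, 562 and 720 reads per Npy entry in NG, HG and HG + drugs, so that counting error was small beside the spread between libraries. Leaving out replicate 13 gave a mean of 180 ± 18.1 FPKM for HG (SD, n = 19) and of 242 ± 33.8 for HG + drugs (SD, n = 18).

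**Figure D1:**
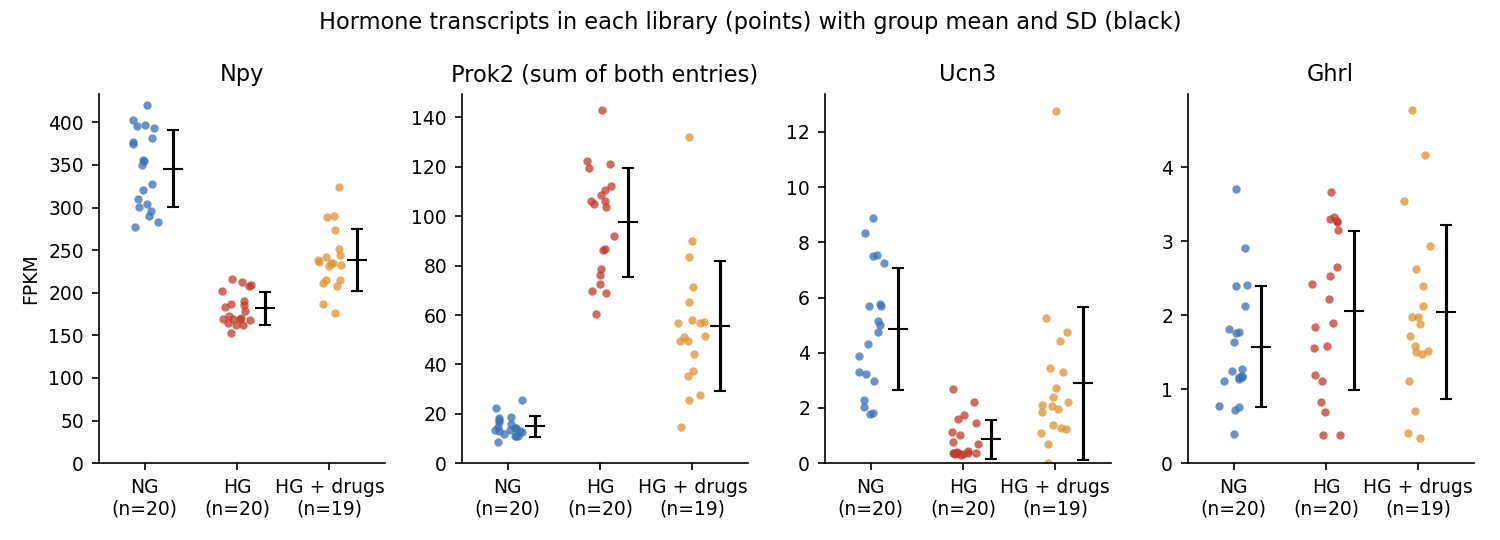
Level in FPKM (vertical axes, each starting at 0) of Npy, of Prok2 summed over its entries, of Ucn3 and of Ghrl in each library (points) of NG, HG and HG + drugs, with the group mean and SD in black. Npy in HG (153 to 216 FPKM) lies wholly below NG (277 to 421 FPKM), Prok2 in HG (60.2 to 143 FPKM) lies wholly above NG (8.54 to 25.5 FPKM), and the Ghrl groups overlap.

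Npy also differed between libraries of 1 group. The study sequenced in batches of 15 without stating which library was in which, so libraries were taken in 4 sets of 15 consecutive library numbers. Mean NG levels of Npy were 397, 342, 347 and 296 FPKM in the sets from first to last. In HG they were 204, 168, 180 and 175 FPKM, and in HG + drugs 286, 228, 214 and 225 FPKM. Within every set, the HG libraries were all below the NG libraries, and the HG + drugs libraries were also all below the NG libraries. HG + drugs lay wholly above HG in 2 of the 4 sets, and its log2 difference from HG ran from 0.25 to 0.48 over the sets.

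Prok2 had 2 entries, of 324 and 387 bases, 63 bases apart in length. Cufflinks, which the study used to assign reads, divides reads that fit either, so the level of each entry is an estimate and their sum rests on fewer assumptions. The sum ranged from 8.54 to 25.5 FPKM in NG (median 13.9, mean 14.9 ± 4.08, SD, n = 20). In HG it ranged from 60.2 to 143 FPKM (median 104, mean 97.5 ± 22.0, SD, n = 20). Every HG library was above every NG library. In HG + drugs the sum ranged from 14.7 to 132 FPKM (median 51.7, mean 55.7 ± 26.4, SD, n = 19), and 14 of 19 libraries were below the lowest HG library, with 17 of 19 above the highest NG library. The log2 differences of the sum were 2.64 (SE 0.15) for HG compared to NG, -0.91 (SE 0.15) for HG + drugs compared to HG and 1.73 (SE 0.15) for HG + drugs compared to NG, which in mean FPKM are ratios of 6.55, 0.571 and 3.74. Leaving out replicate 13 gave a mean sum of 99.5 ± 20.7 FPKM for HG (SD, n = 19) and of 51.4 ± 19.3 for HG + drugs (SD, n = 18), a ratio of 0.517. The lowest HG library was then at 68.9 FPKM, and 15 of 18 HG + drugs libraries were below it.

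The shorter Prok2 entry carried most of the level. It averaged 9.95 ± 4.32 FPKM in NG, 67.8 ± 17.7 in HG (SD, n = 20 each) and 39.5 ± 23.3 in HG + drugs (SD, n = 19), with no overlap between NG (1.38 to 18.4) and HG (37.7 to 102). The longer entry averaged 4.93 ± 4.10 FPKM in NG, 29.7 ± 9.55 in HG (SD, n = 20 each) and 16.2 ± 7.56 in HG + drugs (SD, n = 19), and its NG and HG libraries overlapped, since 1 NG library reached 16.1 FPKM and 1 HG library was at 8.34 FPKM. The longer entry made up 29.5%, 29.4% and 30.1% of the sum in the median library of NG, HG and HG + drugs. The share of the longer entry thus had a like median in the 3 groups, while single NG libraries ran from near 0 to 92.1%, where the entries held few reads (a median of 10.8 and 6.89 estimated reads in NG).

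**Figure D2:**
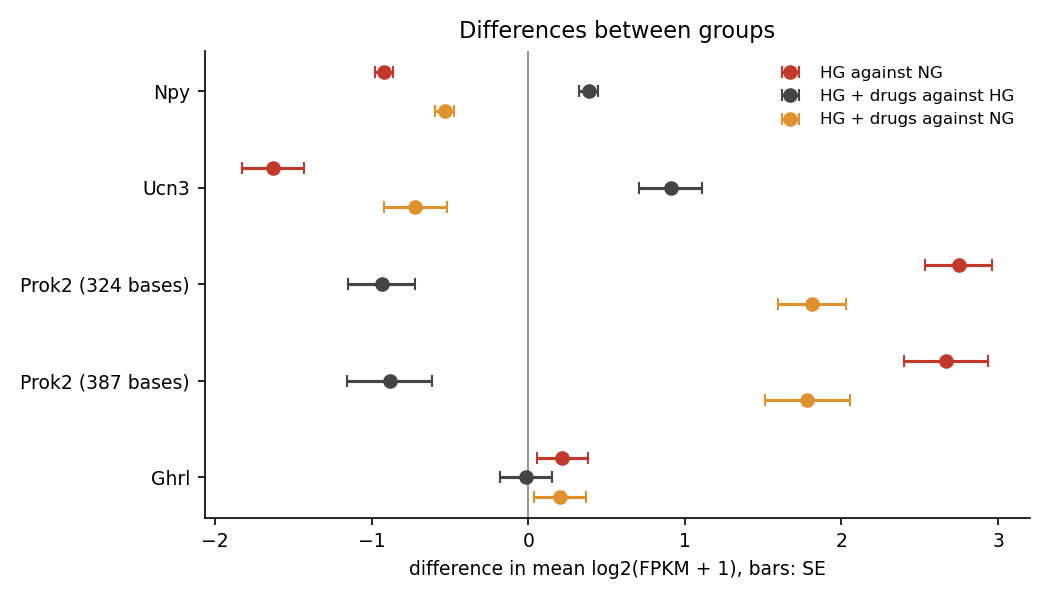
Difference in mean log2(FPKM + 1) (horizontal axis) with its SE (bars) for the 5 entries with a mean of at least 1 FPKM, for HG against NG (red), HG + drugs against HG (dark grey) and HG + drugs against NG (orange). Npy and Ucn3 lie below 0 in HG against NG (-0.92 and -1.63) and above 0 in HG + drugs against HG (0.38 and 0.91), the Prok2 entries lie on the opposite sides, and Ghrl lies close to 0.

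By set, the mean sum of Prok2 was 13.2, 12.9, 17.1 and 16.4 FPKM in NG. In HG it was 107, 82.6, 92.4 and 108 FPKM, above all NG libraries in each of the 4 sets. In HG + drugs it was 40.6, 52.4, 71.6 and 58.7 FPKM, below HG in the mean of every set and free of overlap with HG in 1 set. The third set holds replicate 13.

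**Figure D3:**
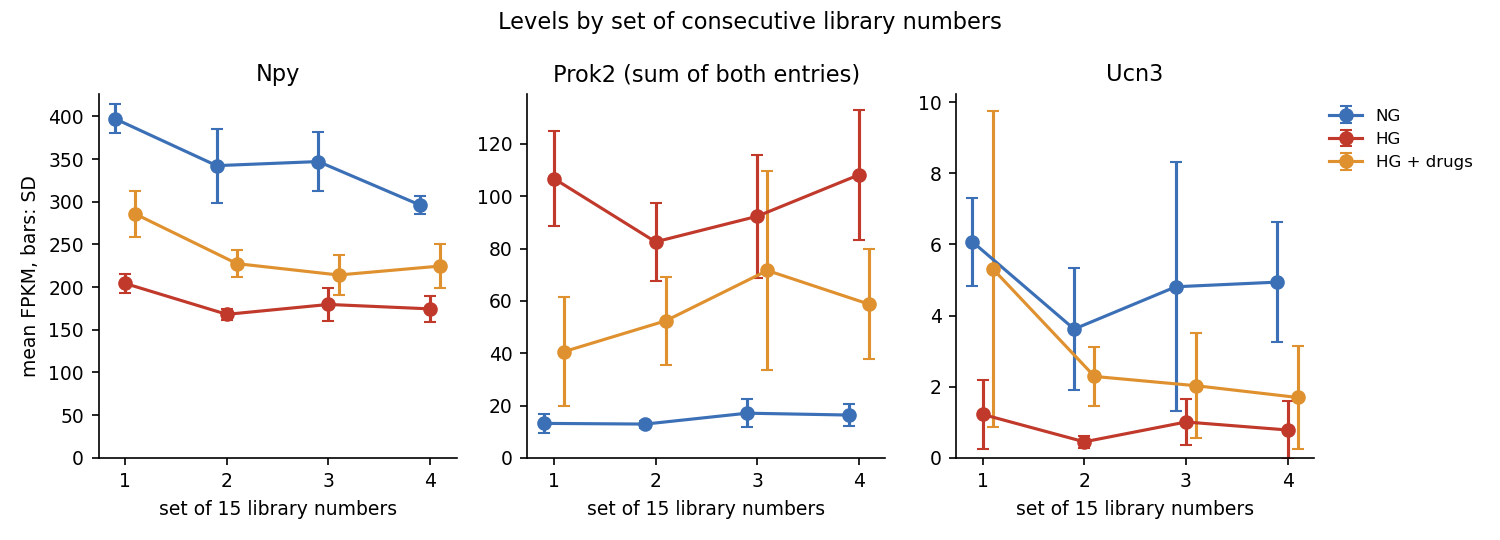
Mean level in FPKM (vertical axes, each starting at 0) with SD (bars) of Npy, of Prok2 summed over its entries and of Ucn3 in each set of 15 consecutive library numbers (horizontal axis), for NG, HG and HG + drugs. Npy in NG is highest in the first set (397 FPKM) and lowest in the fourth (296 FPKM), and the order of the 3 group means is the same in each set for all 3 hormones.

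Ucn3 was a low transcript (523 bases). A single read was worth about 0.36 FPKM, and its levels in these libraries corresponded to whole numbers of reads. In NG it ranged from 1.79 to 8.89 FPKM (median 4.88, mean 4.86 ± 2.22, SD, n = 20), from 271 reads in all. In HG it ranged from 0.303 to 2.68 FPKM (median 0.416, mean 0.866 ± 0.716, SD, n = 20), from 48 reads in all. In HG, 11 of 20 libraries rested on 1 read, and 18 of 20 were below the lowest NG library. In HG + drugs it ranged from 0 to 12.8 FPKM (median 2.10, mean 2.89 ± 2.76, SD, n = 19), from 156 reads, of which 39 came from replicate 1. Of the HG + drugs libraries, 18 of 19 were above the HG median and 17 of 19 were below the NG median. The log2 differences were -1.63 (SE 0.20) for HG compared to NG, 0.91 (SE 0.20) for HG + drugs compared to HG and -0.72 (SE 0.20) for HG + drugs compared to NG. In mean FPKM, NG was 5.62-fold higher than HG. The log2 difference between HG and NG was -2.52 with a pseudocount of 0.1 in place of 1, the HG median of 0.416 FPKM being below 1. Within each of the 4 sets all HG libraries were below all NG libraries, and the set means in HG + drugs were 5.32, 2.29, 2.03 and 1.70 FPKM. The first set holds HG + drugs replicate 1. Leaving out replicate 13 gave a mean of 0.819 ± 0.703 FPKM for HG (SD, n = 19) and of 3.01 ± 2.79 for HG + drugs (SD, n = 18).

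Ghrl, whose product stimulates appetite and growth hormone release once it is acylated, ranged from 0.394 to 3.70 FPKM in NG (median 1.26, mean 1.57 ± 0.816, SD, n = 20). It ranged from 0.378 to 3.67 FPKM in HG (median 2.06, mean 2.06 ± 1.07, SD, n = 20) and from 0.345 to 4.78 FPKM in HG + drugs (median 1.89, mean 2.04 ± 1.18, SD, n = 19). The groups overlapped over nearly their whole ranges. The log2 differences were 0.22, -0.02 and 0.20 (SE 0.16 each) for HG compared to NG, HG + drugs compared to HG and HG + drugs compared to NG. These values rest on 80, 106 and 100 reads in all in NG, HG and HG + drugs. Whether Ghrl differed between the groups was not tested.

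Pyy, Ppy and Sst were at the limit of detection. Pyy, the gut hormone of L-cells, had 1 read in 3 of 20 NG libraries, in 0 of 20 HG libraries and in 2 of 19 HG + drugs libraries. Ppy had 1 read in 1 NG library and none in HG or HG + drugs. Sst had 1 read in 1 NG library and 1 HG library, and none in HG + drugs. A total of 0 reads allows up to 3 reads over a group, which for Pyy in HG is 0.0542 FPKM, for Ppy in HG and HG + drugs 0.0608 and 0.0635 FPKM, and for Sst in HG + drugs 0.0497 FPKM. These limits cover counting error only, and no difference between groups could be seen for these 3 hormones at this depth.

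**Figure D4:**
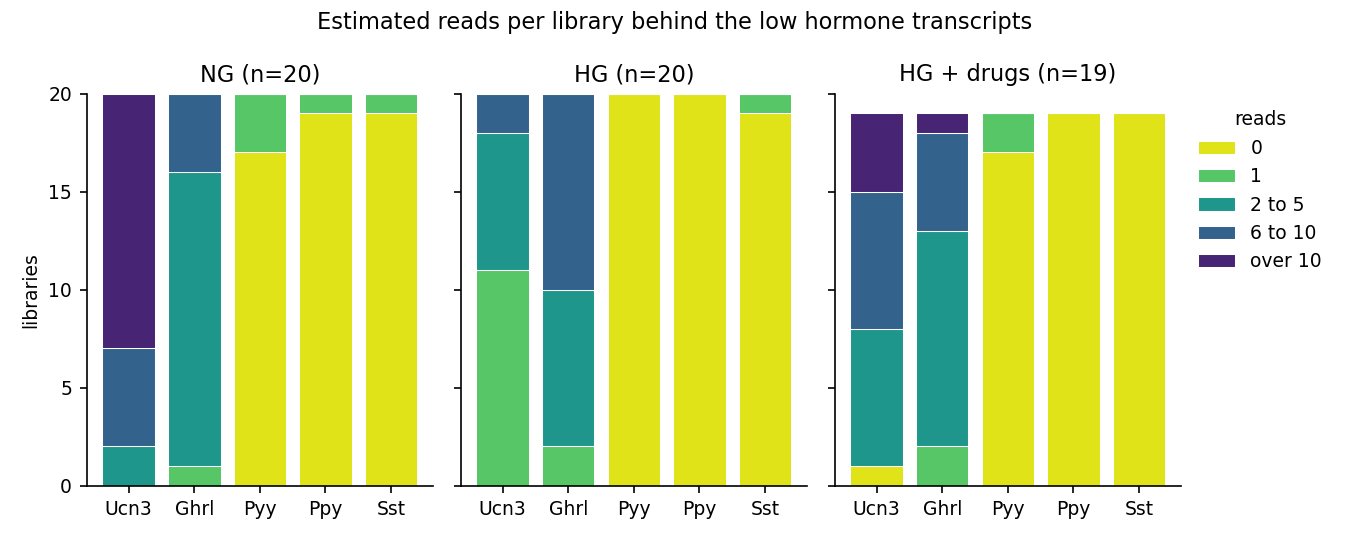
Number of libraries (vertical axis) by the estimated number of reads behind Ucn3, Ghrl, Pyy, Ppy and Sst (colours) in NG, HG and HG + drugs. Ucn3 rested on 1 read in 11 of 20 HG libraries and on 2 or more in all 20 NG libraries, while Pyy, Ppy and Sst had no read in most libraries of each group.

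The order of the levels changed between the groups. Npy was above summed Prok2 in all 59 libraries, but Prok2 was 4.00% of Npy in the median NG library (2.16% to 7.68%), 55.7% in HG (28.3% to 76.9%) and 22.0% in HG + drugs (4.54% to 74.8%). Prok2 was above Ucn3 in every library. Ucn3 was above Ghrl in 18 of 20 NG libraries, in 3 of 20 HG libraries and in 9 of 19 HG + drugs libraries, so the neighbours Ucn3 and Ghrl exchanged places between NG and HG and were not separated in HG + drugs. These comparisons between genes rest on the length correction in FPKM, here an estimated length less 202 bases, which weighs most on short entries. In HG, 1 read was worth about 0.95 FPKM for the 324-base Prok2 entry and 0.32 FPKM for Npy. The percentages of Npy also depend on whether reads were divided between its 2 entries.

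For the 3 hormones whose levels differed most, the 250 bases before the annotated transcript start are shown, 5′ to 3′ on the strand of the gene, from RefSeq on the rat build GRCr8 (all 7 genes matched). The FPKM values were made on the earlier build rn5, so the windows locate the genes and were not used for any value. Capitals mark the letters CACGTG (an E-box motif) and TGACG or its reverse complement CGTCA (the core letters of the cAMP-response element TGACGTCA), searched on both strands.
Npy (chr4:80211861-80212110, + strand): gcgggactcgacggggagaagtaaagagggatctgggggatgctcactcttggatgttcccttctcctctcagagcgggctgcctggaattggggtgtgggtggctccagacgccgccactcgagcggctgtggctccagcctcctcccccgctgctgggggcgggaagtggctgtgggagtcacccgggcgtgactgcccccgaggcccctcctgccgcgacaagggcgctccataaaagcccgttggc
Prok2 (chr4:133917934-133918183, - strand): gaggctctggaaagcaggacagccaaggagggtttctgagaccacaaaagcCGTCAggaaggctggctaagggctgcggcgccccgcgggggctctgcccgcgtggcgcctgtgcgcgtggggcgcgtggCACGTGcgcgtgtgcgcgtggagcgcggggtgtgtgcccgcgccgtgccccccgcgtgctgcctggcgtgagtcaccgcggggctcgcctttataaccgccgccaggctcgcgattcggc
Ucn3 (chr17:71219406-71219655, + strand): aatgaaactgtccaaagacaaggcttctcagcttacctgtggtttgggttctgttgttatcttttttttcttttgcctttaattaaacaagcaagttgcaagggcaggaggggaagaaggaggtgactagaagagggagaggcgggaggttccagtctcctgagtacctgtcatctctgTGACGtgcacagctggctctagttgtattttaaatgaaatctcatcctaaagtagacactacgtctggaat
Sst (chr11:90461537-90461566, + strand): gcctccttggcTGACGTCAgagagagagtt
The last line holds 30 bases around the annotated start of Sst. They are shown because the cAMP-response element of this gene is a well-studied one and its transcript was at the limit of detection here. Searched over 250 bases before to 50 bases after the start, CACGTG was found in 1 of the 7 genes, Prok2, at -120 to -115, and in 6.42% of 33469 rat windows of the same length. TGACG was found in 3 of the 7 and in 21.2% of all windows. It lay at -199 to -195 in Prok2 on the other strand and at -71 to -67 in Ucn3. In Sst it lay within the whole element TGACGTCA, at 3 to 10 after the annotated start. All positions are counted from the RefSeq start on GRCr8, which was not checked in these cells. The Sst position therefore does not show that the element lies within the transcript. TGACGTCA, which contains TGACG, was in 1.83% of all windows. Npy held none of these letters in its window. These are matches of letters and not measured binding sites.

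Npy and Prok2 were the 2 of 7 genes whose HG and NG libraries did not overlap, a pattern that 1.8% of the 10660 tested transcripts had (0.544% lower in HG, 1.26% higher). No member had separate groups in HG + drugs compared to HG (0% of all transcripts) or in HG + drugs compared to NG (0.235%, of which 0.075% were lower in HG + drugs). These shares include replicate 13 and were not counted without it. Without it, HG + drugs and HG still overlapped for Npy (187 to 325 and 153 to 216 FPKM). The same held for summed Prok2 (14.7 to 89.8 and 68.9 to 143 FPKM). Since the genes were picked on these contrasts, nothing is read from the counts. The sum over 10 β-cell marker transcripts, in which insulin weighs most, moved with Npy and Ucn3. Its median was 91140 FPKM in NG (75140 to 119100), 63100 in HG (43720 to 84650) and 75010 in HG + drugs (59040 to 103100). All 10 averaged at least 1 FPKM, but they did not all share this order of means. Nkx6-1 averaged 10.3, 10.8 and 9.83 FPKM in NG, HG and HG + drugs, Nkx2-2 was lowest in HG + drugs (38.7, 34.1 and 32.3 FPKM), and Slc2a2 was at 484, 432 and 434 FPKM. The part of the shift in the sum in the hormone levels was not tested. Fewer cells that express a gene and less of its RNA per cell cannot be told apart in such bulk samples. The 4 defining δ-cell markers were near 0 (the highest at 0.0800 FPKM on average). The highest acinar marker averaged 0.584 FPKM, the highest duct marker 0.246, the highest endothelial marker 0.143 and the highest leukocyte marker 0.708. Of 7 fibroblast markers, Thy1 (110 FPKM) and Pdgfra (1.81 FPKM) averaged at least 1 FPKM and 5 were below 0.1, and their sum had a median of 110.3, 109.5 and 120.3 FPKM in NG, HG and HG + drugs. Of 8 enteroendocrine markers, Sct (33.3 FPKM), Cck and Fev (4.32 FPKM) averaged at least 1 FPKM, with a summed median of 67.6, 72.2 and 71.6 FPKM. Gcg (glucagon), an α-cell hormone, was expressed and is given with the other hormones.

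Over all libraries, the transcripts whose log2(FPKM + 1) was most like that of Npy were Tnni3k (r = 0.936), Iah1 (r = 0.921) and Dleu7 (r = 0.92), each with its lowest mean in HG. For Prok2, the most like were Acaca (r = 0.951), which encodes acetyl-CoA carboxylase, Tkt (r = 0.949), which encodes transketolase, and Il17rb (r = 0.949). Acaca averaged 16.5, 37.5 and 31.5 FPKM in NG, HG and HG + drugs, and Tkt 149, 238 and 200 FPKM. For Ucn3 they were Trpv1 (r = 0.857), a cation channel gene with 23.6, 13.0 and 17.7 FPKM, Zdhhc14 (r = 0.843) and Gcat (r = 0.837). For Ghrl the highest were LOC499781 (r = 0.505), Pkmyt1 (r = 0.481) and Nr1h4 (r = 0.458), which at its few reads is no finding. These correlations are over 59 libraries that share the group differences, so any transcript that moved with the groups scores high.

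After the group means were taken off, Npy was most like Hagh (r = 0.728), Tll1 (r = 0.714) and Abhd14b (r = 0.675). Prok2 was then most like Hspa12a (r = 0.775), Mxd3 (r = 0.762) and Eepd1 (r = 0.719). Ucn3 kept Trpv1 (r = 0.692) and Zdhhc14 (r = 0.673), followed by Qsox2 (r = 0.673). Ghrl was most like LOC499781 (r = 0.485), Srf (r = 0.474) and Mier1 (r = 0.474). The libraries also share sequencing sets and the pair numbered 13, and no test is attached to these values.

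Whether the hormones varied together among libraries of 1 group was tested, since the choice of genes did not use this. Of 15 combinations of a pair and a group, 1 had an adjusted p below 0.05 in a two-sided permutation test with Benjamini-Hochberg adjustment, and 4 had an unadjusted p below 0.05. In HG + drugs, Npy and Ucn3 varied together (r = 0.701, permutation p = 0.00117, adjusted p = 0.0175; Spearman rho = 0.419, permutation p = 0.0745, adjusted p = 0.559). Without the 2 libraries farthest from the median of Npy, r was 0.495 (adjusted p = 0.31 by permutation), so that the relation rests on those libraries. Within sets of library numbers r was 0.574 (adjusted p = 0.106 by permutation), and it did not hold at the threshold there either. Without replicate 13 it was 0.67 (adjusted p = 0.0406 by permutation). In NG, the same pair had r = 0.0784 (adjusted p = 0.853 by permutation). In HG + drugs, Prok2 had r = -0.599 with Ucn3 (rho = -0.368, adjusted p of r = 0.0634 by permutation) and r = -0.557 with Npy (rho = -0.33, adjusted p of r = 0.069), and without the 2 farthest libraries these were -0.239 and -0.101. In HG, Prok2 and Ghrl had r = -0.517 (rho = -0.493, adjusted p of r = 0.0783 by permutation). Ucn3 in HG, where most libraries held 1 read, was left out of these tests, as its mean of 0.866 FPKM was below the minimum of 1 FPKM.

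The receptors on which the 7 hormones act were taken as a list of 15 genes, 14 of which were in the table. Only 5 averaged at least 1 FPKM and were tested, and 6 averaged below 0.1 FPKM. The receptors of Prok2, Prokr1 and Prokr2, as well as Crhr2, Npy2r, Npy5r, Ppyr1, Ghsr, Sstr4 and Sstr5 were not among those tested. Of these, Sstr5 averaged 0.613 ± 0.229 FPKM in NG and 0.116 ± 0.115 in HG (SD, n = 20 each). In HG + drugs it averaged 0.270 ± 0.241 FPKM (SD, n = 19), and its differences were not tested. Crhr1, the receptor for corticotropin-releasing factor, to which urocortin 3 binds weakly, fell from 52.7 ± 9.73 FPKM in NG to 28.4 ± 6.32 in HG (SD, n = 20 each), a log2 difference of -0.88 (SE 0.09, adjusted p = 7.2e-13 by limma with Benjamini-Hochberg adjustment), lower than the NG median in 20 of 20 libraries. It rose with the drugs to 36.1 ± 7.21 FPKM (SD, n = 19), a log2 difference from HG of 0.34 (SE 0.09, adjusted p = 0.0075 by limma, above the HG median in 18 of 19). Sstr3, a somatostatin receptor, fell in HG from 18.7 to 15.0 FPKM (log2 difference -0.30, adjusted p = 9.9e-04, 16 of 20 libraries). In HG compared to NG, 2 of the 5 fell and 0 rose (0 also at an unadjusted p below 0.05), which is 40% called beside 40.1% of all 10660 transcripts (18.2% higher and 22% lower). In HG + drugs compared to HG, 1 rose and 0 fell (0 also at an unadjusted p below 0.05), beside 8.66% of all transcripts (4.17% higher and 4.48% lower). Without replicate 13, 2 of the 5 rose there, the second being Npy1r (log2 difference 0.24, adjusted p = 0.032 by limma, compared to 0.22 and 0.055 with all libraries). In HG + drugs compared to NG, Npy1r, which binds NPY and PYY, rose from 1.59 to 2.06 FPKM (log2 difference 0.24, adjusted p = 0.011, 17 of 19 libraries), whereas Crhr1 and Sstr3 fell, beside 27.3% of all transcripts called (12.7% higher and 14.6% lower). Sstr2, at 12.9, 12.6 and 11.8 FPKM in NG, HG and HG + drugs, passed the test in no comparison of this fit (lowest adjusted p = 0.21 by limma). With replicate number as a term in the fit, it was lower in HG + drugs than in NG (log2 difference -0.11, adjusted p = 0.027 by limma).

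Of 22 genes for the maturation and fate of such peptides (convertases with their chaperone Scg5 and inhibitor Pcsk1n, carboxypeptidases, Pam, the acyltransferase Mboat4, the acyl-CoA synthetase Acsl1, signal peptidase subunits, the peptidase Dpp4 and the binding protein Crhbp), 21 were in the table and 18 were tested. In HG compared to NG, 4 rose and 5 fell (50% beside 40.1% of all transcripts, median log2 difference -0.03 beside -0.02 over all). Pcsk2, a main prohormone convertase of islet cells, fell from 780 ± 64.6 to 546 ± 48.0 FPKM (log2 difference -0.51, SE 0.04, adjusted p = 2.9e-17 by limma, 20 of 20 libraries below the NG median). Pcsk6, a convertase of the secretory pathway, rose from 13.0 ± 1.32 to 25.1 ± 1.48 FPKM (log2 difference 0.90, SE 0.04, adjusted p = 4.8e-27 by limma, 20 of 20). Scg5, the chaperone 7B2 that PCSK2 needs, rose from 470 to 671 FPKM (log2 difference 0.52, adjusted p = 6e-19), in the opposite direction to Pcsk2. Pam, which amidates the ends of NPY, PYY and PPY, rose from 146 to 174 FPKM (log2 difference 0.25, adjusted p = 1.7e-08), and Acsl1 rose as well (log2 difference 0.19, adjusted p = 3.9e-06). The carboxypeptidase gene Cpd fell (log2 difference -0.21, adjusted p = 2.7e-04), as did the signal peptidase subunits Spcs3 (log2 difference -0.27, adjusted p = 3e-06), Spcs1 (-0.08, adjusted p = 0.026) and Sec11c (-0.18, adjusted p = 7.6e-04). Cpe, the carboxypeptidase that trims most granule hormones, was at 1017 and 1051 FPKM in NG and HG and did not pass the test (adjusted p = 0.099 by limma). With replicate number as a term in the fit, Cpe did pass (adjusted p = 0.0035 by limma).

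In HG + drugs compared to HG, 3 of these 18 rose and 1 fell (22.2% beside 8.66% of all transcripts). Pcsk2 rose to 644 ± 59.2 FPKM (SD, n = 19, log2 difference 0.24, adjusted p = 2.6e-05 by limma, above the HG median in 18 of 19), and Cpd and Spcs3 rose by 0.19 and 0.16 on the log2 scale (adjusted p = 0.0061 and 0.02). Pcsk6 fell to 20.5 ± 2.25 FPKM (SD, n = 19, log2 difference -0.28, adjusted p = 1.6e-06 by limma, 18 of 19 libraries). In HG + drugs compared to NG, 5 rose and 2 fell (38.9% beside 27.3%), with Pcsk6, Scg5, Acsl1, Pam and Cpe upwards and Pcsk2 and Pcsk1n downwards.

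**Figure D5:**
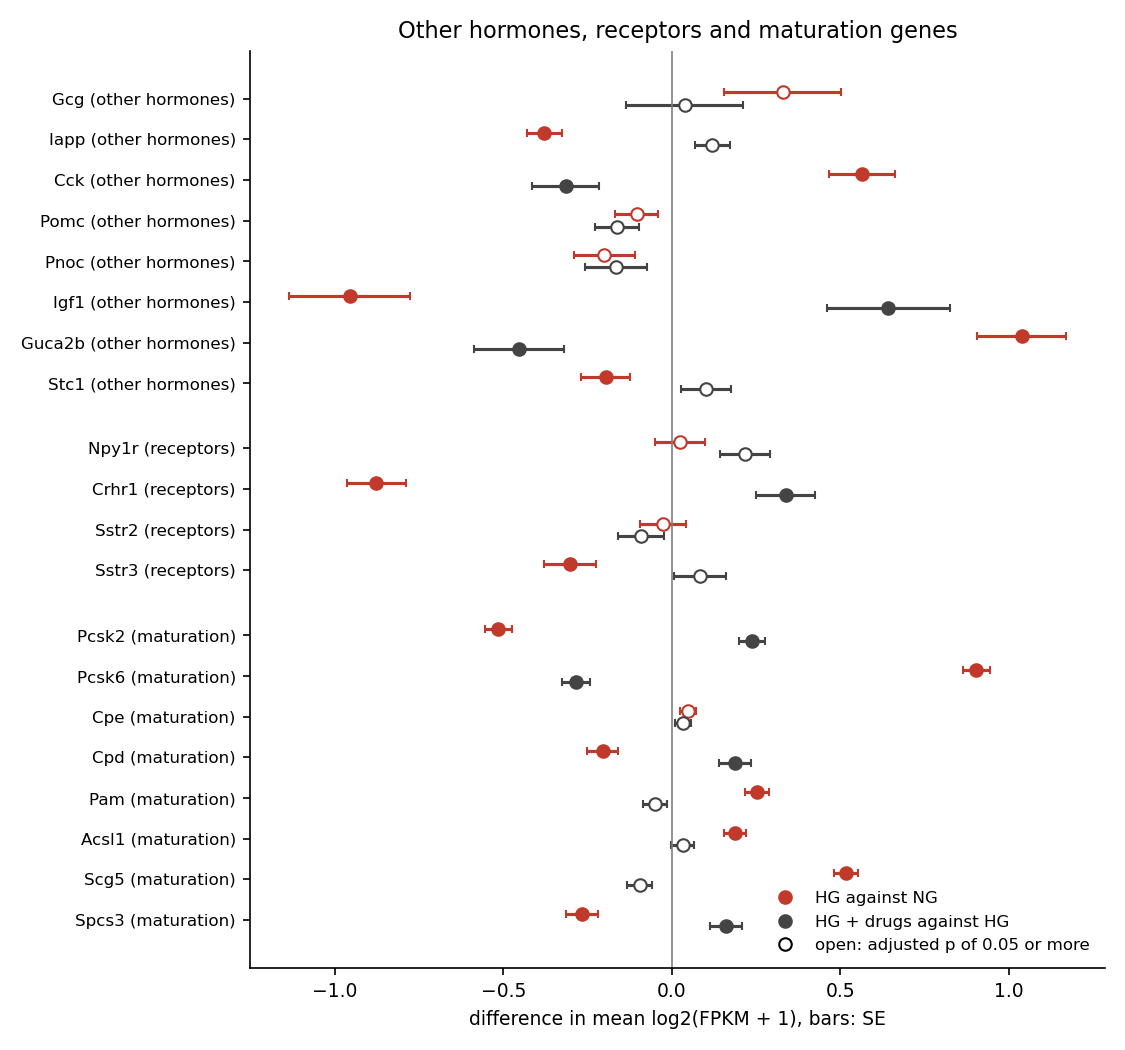
Difference in mean log2(FPKM + 1) (horizontal axis) with its SE (bars) for HG against NG (red) and HG + drugs against HG (dark grey) of the named genes among other hormones, receptors and maturation genes, where filled points had an adjusted p below 0.05. Crhr1 and Pcsk2 lie below 0 in HG against NG (-0.88 and -0.51) and above 0 in HG + drugs against HG (0.34 and 0.24), and Pcsk6, Cck and Guca2b lie on the opposite sides.

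Among 81 other peptide hormones, 77 were in the table, of which 38 averaged below 0.1 FPKM and 21 genes (23 entries) were tested. In HG compared to NG, 3 entries rose and 8 fell (47.8% beside 40.1% of all transcripts, with a median log2 difference of -0.08). Guca2b, which encodes uroguanylin, rose from 17.9 ± 4.91 to 37.6 ± 9.84 FPKM (log2 difference 1.04, SE 0.13, adjusted p = 2.4e-09 by limma, 20 of 20 libraries), and Cck (cholecystokinin) rose from 25.3 to 38.0 FPKM (log2 difference 0.57, adjusted p = 3.7e-06, 19 of 20). Adm (adrenomedullin) was the third to rise, from 5.59 ± 3.50 to 12.3 ± 4.93 FPKM (log2 difference 1.13, adjusted p = 0.001, 18 of 20). Iapp, the amylin that β-cells release with insulin, fell from 8349 to 6423 FPKM (log2 difference -0.38, adjusted p = 1.6e-08, 19 of 20), and 1 Igf1 entry fell from 2.95 to 1.09 FPKM (log2 difference -0.96, adjusted p = 1.6e-05). Stc1 (stanniocalcin 1), among the 3 highest of the list, fell from 258 ± 45.6 to 224 ± 33.5 FPKM (log2 difference -0.20, adjusted p = 0.027, 15 of 20). The others that fell were Gast (gastrin, 6.05 to 3.23 FPKM, adjusted p = 3.4e-04), Sct (secretin, 37.5 to 28.2 FPKM, adjusted p = 0.0022), Nucb2 (101 to 88.8 FPKM, adjusted p = 0.0044), 1 Igf2 entry (33.2 to 29.4 FPKM, adjusted p = 6.8e-04) and Edn3 (log2 difference -0.08, adjusted p = 0.031). Gcg was at 947 ± 349 FPKM in NG and 1164 ± 348 in HG (SD, n = 20 each) and did not pass the test (log2 difference 0.33, adjusted p = 0.12 by limma). With replicate number as a term in the fit, the same difference passed (adjusted p = 2.5e-05 by limma), so the call for Gcg depends on the pairing. In HG + drugs compared to HG, 1 entry rose (Igf1, log2 difference 0.64, adjusted p = 0.016) and 2 fell (Guca2b, -0.45, adjusted p = 0.022, and Cck, -0.32, adjusted p = 0.035), 13% beside 8.66%. Without replicate 13, 3 entries rose in this comparison in place of 1. In HG + drugs compared to NG, 1 rose and 5 fell (26.1% beside 27.3%), with Guca2b upwards and Iapp, Pomc, Pnoc, Gast and 1 Igf2 entry downwards. The comparisons with HG share the HG libraries, and those with NG the NG libraries.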

How the data were processed

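RNA sequencing of INS-1E cells was available for 59 libraries, from what the study describes as 20 independent experiments with 3 conditions. No library of HG + drugs replicate 16 was among them. The study left out 1 sample for its quality and did not name it. Per the labels and methods, the authors checked reads with FastQC 1.0.0, aligned them to rn5 with TopHat and Bowtie and ran Cufflinks, and the deposited FPKM values were used as given, with 18331 entries of which 542 repeat another entry. Columns headed LG were matched to NG by number.

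Differences and standard errors were estimated with limma (version 3.58.1 in R 4.3.3, trend and robust) on log2(FPKM + 1), 1 fit of 3 groups over 10660 entries with a mean of at least 1 FPKM. That fit held no term for replicate number. P-values were adjusted by the Benjamini-Hochberg method per comparison over all entries, with a threshold of 0.05, and 4 of the 7 genes passed the minimum. Reads per library and gene were estimated from the steps of low values (length less 202 bases): 85.6% of 64966 low values lay within 0.05 of whole reads. Values of the Prok2 entries were divided by Cufflinks and are not whole. Correlations used 100000 resamples. The tables, tests and simulated checks used Python 3.11.15, numpy 2.4.6, pandas 2.3.3 and scipy 1.17.1.

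The 7 genes and all lists were chosen with earlier results of these data known. Beyond the 7, in each list and comparison up to 4 entries with the smallest adjusted p below 0.05 were named, with the 3 highest entries of each list, and for each hormone of at least 1 FPKM the 3 transcripts of highest r. Adm, Edn3, Gast, Igf2, Nucb2, Sct, Pcsk1n, Spcs1 and Sec11c fell outside this rule and were named after their values were seen. Alternatives were a pseudocount of 0.1, no minimum or 5 FPKM, median-ratio scaling, a replicate block, sets as a term, shared numbers only, sums per symbol and no replicate 13. Leaving out HG + drugs replicate 13 alone was added after the data were seen. Genes that share reads with a near copy are uncertain.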

Additional observations from a re-analysis of the deposited data

How the results depend on the processing

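Replicate numbers were not taken to pair the libraries. The labels do not say what a number shares, though the study describes 20 independent experiments with 3 conditions. Not every same-numbered pair had deviations correlated above 0.1 (38 of 58 did, median 0.153, lowest -0.0907). However, 27 of 59 libraries were closest to their own number, and library numbers follow each other within a replicate number. Both point to shared experiments, which the labels do not state. If the numbers mark shared experiments, every SE and adjusted p of the main fit leaves out that pairing. A result that did not pass there is therefore not shown to be absent. With the replicate block, transcripts called in HG + drugs compared to HG went from 445 higher and 478 lower to 1015 and 1081, other hormones from 3 to 5 higher in HG compared to NG, from 1 to 5 higher in HG + drugs compared to HG and from 1 to 4 higher in HG + drugs compared to NG, receptors from 1 to 2 higher in HG + drugs compared to HG, and maturation genes from 3 to 5 higher and 1 to 3 lower in HG + drugs compared to HG and from 2 to 5 lower in HG + drugs compared to NG. Without replicate 13, higher calls in HG + drugs compared to HG were 3 for other hormones and 2 for receptors, and 2 for each without HG + drugs replicate 13 alone. With no minimum, other hormones had 5 higher in HG compared to NG and 3 higher in HG + drugs compared to NG. With a minimum of 5 FPKM they had 0 higher in HG + drugs compared to HG, and 2 higher and 2 lower in HG + drugs compared to NG, where receptors had 0 higher, as fewer genes were tested. Median-ratio scaling and sets as a term each gave 2 higher other hormones in HG + drugs compared to NG. The Ucn3 difference between HG and NG was -2.52 with a pseudocount of 0.1. The count of pairs that varied together was 0 within sets and 0 without the 2 farthest libraries. The other 365 summary values and 643 values of single genes kept their side and direction, 18 single values newly passed the threshold, 2 no longer did and 0 reversed. The 2 were the r of Npy and Ucn3 within sets and without the 2 farthest libraries. With the replicate block the newly called were Gcg (adjusted p = 2.5e-05 by limma) and Cpe (0.0035) in HG compared to NG, Iapp, Npy1r and Scg5 in HG + drugs compared to HG, and Gcg, Cck, Stc1, Sstr2 and Spcs3 in HG + drugs compared to NG. Median-ratio scaling also called Cpe and Cck, sets as a term Cck and Spcs3, a minimum of 5 FPKM Cck, sums per symbol Igf1, and leaving out replicate 13 or its HG + drugs library Npy1r. Beyond the smaller tests and samples named, the cause was not tested. At 1 read for about 0.36 FPKM, depth limits Ucn3 in HG, Ghrl, Pyy, Ppy and Sst.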
